A study of Sus scrofa with 4 samples.

Results

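Open chromatin was examined around 9 genes of the circadian clock in porcine fetal fibroblasts: CLOCK, PER1, PER2, PER3, CRY1, CRY2, NR1D1, NR1D2 and DBP. The genes were chosen by name, and their regions by position: every ATAC-seq peak that overlapped the RefSeq gene model (Sscrofa11.1) with 20 kb on both sides. All 9 were found among 19550 protein-coding models on placed chromosomes, and their windows, 835.8 kb in all, held 82 of 121788 open regions. An open region here is a stretch of peaks of the 4 libraries merged where they overlapped by at least 1 bp. ATAC-seq marks accessible DNA by the cuts of the Tn5 transposase. The cells, labelled PFFs and taken from skin, were all serum-starved. The control group was wild type and carried the vector pTK-642 (libraries control 1 and control 4), and the BRG1 group was labelled BRG1-overexpressed and carried pTK-642-BRG1 (libraries BRG1 1 and BRG1 4). BRG1 is a chromatin remodelling ATPase, and the study asked how its over-expression in donor cells for cloning bears on chromatin openness. The labels name neither the hour of collection nor the number of fetuses or cultures behind a group. The p-values therefore compare only these libraries, and differences between libraries may be technical.

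The circadian clock is a feedback loop that runs inside single cells, fibroblasts in culture among them. CLOCK, paired with BMAL1, binds E-box elements and activates the PER, CRY, NR1D and DBP genes. The PER and CRY proteins then inhibit CLOCK and BMAL1, the NR1D receptors (REV-ERBs) repress BMAL1, and DBP carries the rhythm to genes with D-box elements. Serum added to starved fibroblasts is a classic way to bring the clocks of a culture into step. An open region shows that DNA is accessible and does not measure expression or the phase of the clock.

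Depth was read in relative terms from the lowest background of each list, and it was 81.2% (BRG1 1), 92.6% (BRG1 4) and 93.5% (control 4) of that of control 1. BRG1 4 stood apart in peak shape, with a median width of 541 bp over its whole list against 396 to 404 bp in the other libraries, and with a median fold over background of 6.86 against 7.55 to 8.22. Of the fixed fibroblast markers, 11 of 13 found in the gene table had a peak within 1 kb of a gene end in all 4 libraries, among them COL1A1, PDGFRA, THY1, VIM and PRRX1. DCN, which encodes decorin, had none, and FN1, which encodes fibronectin, had one in BRG1 1 alone. Among markers of other cells, the same held in all 4 libraries for 1 of 5 keratinocyte, 1 of 5 endothelial, 3 of 5 immune and 3 of 5 melanocyte genes. Over all protein-coding genes the share was 68.2%, so the immune and melanocyte counts were near the background. KRT5, TP63, PECAM1, CDH5, PTPRC and TYR had no such peak in any library.

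Every one of the 9 clock genes had a peak within 1 kb of an end of its model in all 4 libraries. The same held for 68.2% of all protein-coding genes, but the members were chosen with earlier results of these data known. The gene table gives no strand, so the lower- and higher-coordinate ends are named in place of start and finish. The strongest end peak of each gene was ranked by its percentile of −log10 p within the list of its own library, where 100 is the top. The mean over the 4 libraries had a median of 96.6 over the 9 genes and of 89.0 over the 13334 genes with such a peak in all 4 libraries. In order of that mean the genes ran from PER2 and PER3 (both 99.2) through CRY2 (98.3), CRY1 (97.6), NR1D1 (96.6), PER1 (96.4), NR1D2 (95.8) and DBP (95.5) to CLOCK (88.3). Among the first 8, neighbours in this order had library values that overlapped. CLOCK had all 4 values below those of every other member.

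**Figure D1:**
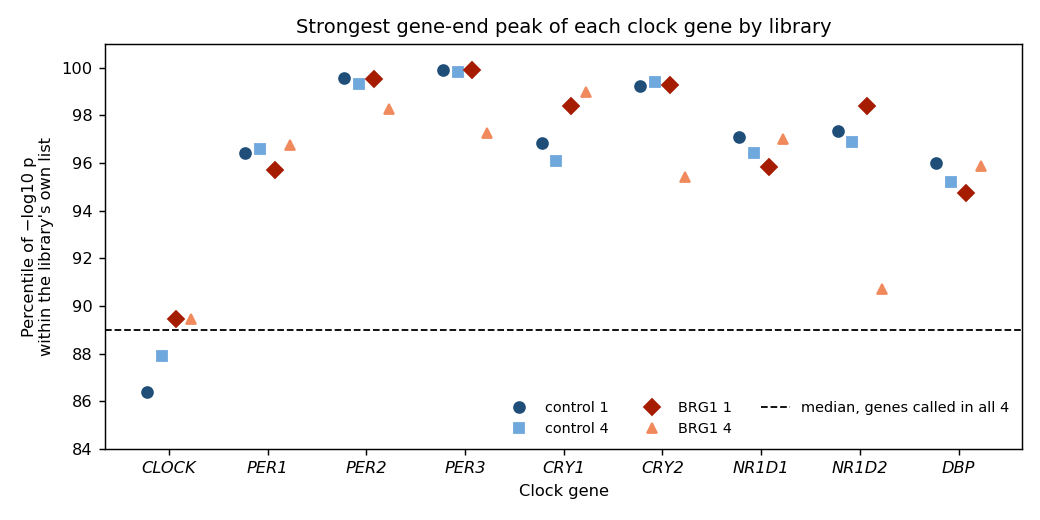
Percentile of −log10 p, within the library's own list, of the strongest peak within 1 kb of an end of each clock gene (vertical axis, starting at 84), by library; the dashed line is the median of the 4-library mean over all genes with such a peak in all 4 libraries (89.0). CLOCK sits at the line, from 86.4 to 89.5, and the 8 other genes lie above it in every library.

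CLOCK encodes the activating bHLH-PAS partner of BMAL1. Its model lies on chromosome 8 from 54793323 to 54910192 (117 kb), and the open region across its higher-coordinate end ran from 54909636 to 54910696. The peak there had a percentile of 86.4 in control 1 and 87.9 in control 4, and of 89.5 in BRG1 1 and 89.4 in BRG1 4. Both BRG1 values were above both control values, but ranks from lists of different length cannot show whether the site changed. The summit lay 23 to 43 bp from the end of the model, and the pileup at the summit was 115, 120, 123 and 115 tags in the same order of libraries.

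A smaller region beside it, from 54909202 to 54909506, was called in every library except BRG1 4. Within the CLOCK model the strongest region was not at the end. It ran from 54823365 to 54824016, 30042 bp above the lower-coordinate end, and its percentiles were 91.9, 93.7, 90.4 and 83.7 in control 1, control 4, BRG1 1 and BRG1 4. It outranked the end peak in the first 3 of these libraries and not in BRG1 4. The lower-coordinate end, which lies inside the model of TMEM165, carried only a weak peak in control 4, from 54792840 to 54793090, at percentile 14.1.

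The PER genes encode the period proteins, which enter the nucleus with the cryptochromes and inhibit CLOCK and BMAL1. PER2 lies on chromosome 15 from 137793419 to 137837854, and its end region ran from 137836728 to 137837755, inside the model and 99 bp short of the higher-coordinate end. Its peak ranked at 99.6 (control 1), 99.3 (control 4), 99.5 (BRG1 1) and 98.3 (BRG1 4), with 495, 449, 419 and 298 tags at the summit. The 4 summits fell within 9 bp of each other. BRG1 4 had the lowest of the 4 values on both scales, and BRG1 1 lay among the controls by percentile.

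PER3 lies on chromosome 6 from 68487634 to 68548718, and its end region, from 68486783 to 68487990, crossed the lower-coordinate end. The peak ranked at 99.9 (control 1), 99.8 (control 4), 99.9 (BRG1 1) and 97.2 (BRG1 4), with 565, 525, 475 and 233 tags at the summit. BRG1 4 again stood below the other 3 libraries, and BRG1 1 was level with the controls by percentile. The window of PER3 held just 1 more region, from 68473564 to 68474919, across the lower-coordinate end of VAMP3, a gene of vesicle fusion. It was the sparsest of the 9 windows, with 1.98 regions per 100 kb, and the 61.1 kb model had no region outside its lower-coordinate end.

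PER1, on chromosome 12 from 53361863 to 53376723, was the most crowded locus, with 13 regions in its 54.86 kb window, or 23.7 per 100 kb. Its higher-coordinate end region, from 53376336 to 53377446, had percentiles of 96.4, 96.6, 95.7 and 96.8 in control 1, control 4, BRG1 1 and BRG1 4. The BRG1 values lay on both sides of the controls. This region came within 1 kb of an end of VAMP2, which encodes a synaptic vesicle protein, so it cannot be assigned to PER1 alone. At the other end of PER1 a region from 53360659 to 53361620, with percentiles of 94.2, 94.0, 95.0 and 96.3, stopped 243 bp short of the model and covered the tRNA genes TRNAS-CGA and TRNAT-AGU. Inside the model, regions from 53372558 to 53372947 and from 53373693 to 53374934 were called in all 4 libraries, at percentiles of 79.7 to 87.6 and 82.9 to 90.1.

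The cryptochromes CRY1 and CRY2 are potent repressors of CLOCK and BMAL1. CRY1 lies on chromosome 5 from 13275265 to 13429566, and its end region, from 13274866 to 13276156, crossed the lower-coordinate end. The peak ranked at 96.9 (control 1), 96.1 (control 4), 98.4 (BRG1 1) and 99.0 (BRG1 4), with 316, 278, 338 and 352 tags at the summit. Both BRG1 values exceeded both controls on the 2 scales, without a test, since each value belongs to its own list. Tags were not scaled to depth. On that scale CRY1 was the only such member, and both BRG1 values lay below both controls at PER1, PER2, PER3, CRY2, NR1D1 and DBP. At CLOCK and NR1D2 the groups overlapped by tags. No share over all genes was computed for tags. Relative depth was also lower in both BRG1 libraries (81.2% and 92.6%) than in control 1 (100%) and control 4 (93.5%). The tag values therefore cannot show a change at any member. CLOCK and CRY1 were the 2 members whose BRG1 percentiles both lay above both controls, against 11.8% of genes with an end peak in all 4 libraries. In no member did both BRG1 percentiles lie below both controls, against 24.7% of those genes.

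The 154 kb model of CRY1 also contains the models of MTERF2 and TMEM263. A region at the higher-coordinate end of TMEM263, from 13396985 to 13398308, had percentiles of 98.6, 99.2, 98.8 and 97.0 and outranked the CRY1 end in both controls and in BRG1 1. In the middle of the model a region from 13331538 to 13331986, over the pseudogene LOC110260831, was called in all 4 libraries at 78.2 to 87.7.

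CRY2 lies on chromosome 2 from 16587101 to 16620380, and its end region, from 16619868 to 16621190, crossed the higher-coordinate end. The peak ranked at 99.2 (control 1), 99.4 (control 4), 99.3 (BRG1 1) and 95.4 (BRG1 4), with 494, 493, 410 and 252 tags at the summit. As at PER2 and PER3, BRG1 4 was lowest and BRG1 1 lay among the controls by percentile. CRY2 had 7 regions inside its 33.3 kb model besides that at its end, and 5 in the flanks. The strongest inside ran from 16607429 to 16608565, at percentiles of 97.0, 97.8, 96.4 and 96.1, and it outranked the end peak in BRG1 4. Another, from 16596407 to 16596926, had percentiles of 90.8, 90.3, 89.6 and 80.7 at a low background of 2.32 to 3.82 tags. The lower-coordinate end of CRY2 had no peak within 1 kb in any library.

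NR1D1 and NR1D2 encode REV-ERB alpha and REV-ERB beta, nuclear receptors that bind heme and repress BMAL1. NR1D1 lies on chromosome 12 from 22263549 to 22274131, and its end region, from 22262745 to 22264016, crossed the lower-coordinate end. The peak ranked at 97.1 (control 1), 96.4 (control 4), 95.8 (BRG1 1) and 97.0 (BRG1 4), so that the groups overlapped. Its summits fell within 2 bp of each other, the closest of the 9 genes. A second strong region inside the model, from 22264779 to 22265386, ranked at 94.4, 94.9, 92.6 and 91.5.

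The higher-coordinate part of NR1D1 overlaps the model of THRA, which encodes a thyroid hormone receptor, and peaks there belong to both models. In human and rodents these genes lie on opposite strands with overlapping 3′ ends. The region there that all 4 libraries shared ran from 22272598 to 22273058 and was weak, at percentiles of 27.5, 27.4, 13.5 and 11.3. It ended 1073 bp from the end of the NR1D1 model, just outside the 1 kb limit.

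NR1D2 lies on chromosome 13 from 10756954 to 10791219, and its end region, from 10756836 to 10758211, crossed the lower-coordinate end. The peak ranked at 97.4 (control 1), 96.9 (control 4), 98.4 (BRG1 1) and 90.7 (BRG1 4), with 304, 277, 315 and 143 tags at the summit. The BRG1 libraries thus lay on opposite sides of the controls. The summit lay 718 to 751 bp inside the model, farther than at any other member. With a limit of 250 bp NR1D2 no longer counted as called in all 4 libraries, while the other 8 genes did. No other protein-coding model reached into its window, and its other 6 regions all had percentiles of at most 45.3.

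DBP encodes a PAR bZIP factor that activates D-box genes, and it is a target of CLOCK and BMAL1. Its 6.09 kb model lies on chromosome 6 from 53986955 to 53993044 between SPHK2, a sphingosine kinase gene, and CA11, a carbonic anhydrase-related gene. The region across its higher-coordinate end, from 53992419 to 53994325, also covered the end of CA11, and its peak ranked at 96.0 (control 1), 95.2 (control 4), 94.7 (BRG1 1) and 95.9 (BRG1 4). The region across its lower-coordinate end, from 53986218 to 53987422, also covered the end of SPHK2, at 82.3, 82.9, 83.5 and 76.7. Neither can be assigned to DBP alone. The strongest peaks of the window lay elsewhere in every library. They fell in a region from 53978442 to 53979376, at the end of the ribosomal protein gene RPL18 (96.4 to 97.4), and in control 1 in a region from 53980944 to 53981425 (97.2).

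PER1 and DBP were the members with a peak at both ends in all 4 libraries, 2 of 9, against 8.89% of protein-coding genes, and in both the end regions were shared with other genes. The strongest peak of the whole window lay at an end of the gene itself in all 4 libraries for PER2, PER3, NR1D1 and NR1D2, 4 of 9, against 30.5% of protein-coding genes. For PER1, at 96.75 in BRG1 4, a region at TMEM107 and BORCS6 ranked just above it, at 96.77. The share of genes with fewer regions per 100 kb of window was 99.3% for PER1, 97.2% for NR1D1, 96.8% for DBP and 94.3% for CRY2. It was 61.4% for NR1D2, 46.5% for CRY1, 36.4% for PER2, 35.2% for CLOCK and 10.5% for PER3. The 9 windows thus covered nearly the whole range of density, with a median of 9.43 regions per 100 kb against 7.7 over all genes. For regions called in all 4 libraries the order was the opposite, with a median of 4.74 per 100 kb against 4.99.

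Fold over background and rank by p-value ordered the end peaks differently. The deposited fold was lowest at PER1 (6.26 to 7.42), DBP (7.87 to 9.13) and NR1D1 (8.18 to 9.34), and highest at PER3 (16.1 to 22.9). Pileup and background in tags were recovered from the deposited fold and p-value of each peak. PER1 had pileups of 393 to 472 tags over a local background of 54.0 to 66.7 tags, the highest background of the 9 genes. DBP had 295 to 369 tags over 31.5 to 39.5, and NR1D1 331 to 420 over 35.1 to 44.1. CLOCK had the fewest, 115 to 123 tags over 5.8 to 7.18, and yet a fold of 14.2 to 18.2. The 3 genes of low fold are those with short models in dense windows, and how far the local background set their fold was not tested.

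**Figure D2:**
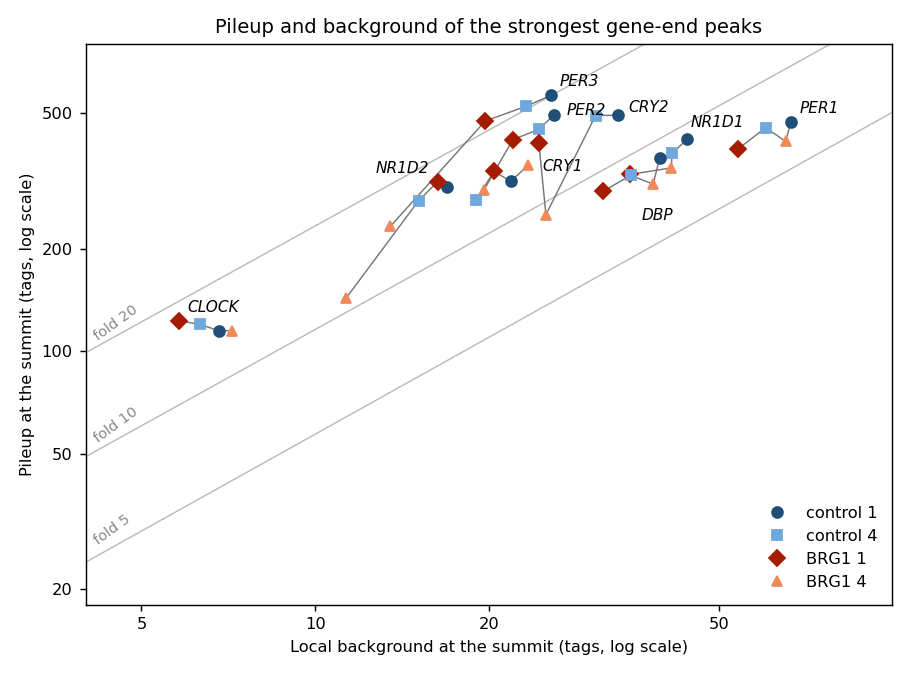
Pileup at the summit against local background (both in tags, log scales) for the strongest end peak of each clock gene; grey lines join the 4 libraries of a gene, and straight lines mark equal fold. PER1, NR1D1 and DBP lie to the right, at backgrounds of 31.5 to 66.7 tags, and CLOCK lies alone at the lower left.

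The 82 regions were then sorted by where they lay and by how many libraries called them. All 4 libraries called 53 of them (64.6%), against 61.8% of all regions, a share near the background. By position, the 4 libraries shared 11 of 13 regions at gene ends, 17 of 33 elsewhere inside the models and 25 of 36 in the flanks. The median of the mean percentile was 95.8 at gene ends, 44.4 inside models and 53.3 in flanks. Shares and medians by position were not computed over all genes, so this contrast cannot be read as a trait of clock genes. The flanks also hold regions at ends of other genes, such as VAMP3, HES6 and RPL18. Another gene had an end within 1 kb of 18 of the 82 regions.

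The other 29 regions, called in 1 to 3 libraries, were short, at 200 to 462 bp. The pileup at their summits ran from 10 to 145 tags, with a median of 17.5. The deepest, from 53371345 to 53371613 inside PER1, had 145, 108 and 106 tags in control 1, control 4 and BRG1 1, over a background of 33.8 to 43.9 tags, and was not called in BRG1 4. These 29 regions lay in every window but that of PER3. BRG1 4 had no peak in 19 of them, BRG1 1 in 18, control 1 in 13 and control 4 in 10. Their mean percentiles had medians of 15.0 for regions of 1 library, 22.4 for 2 and 25.6 for 3, against 85.3 for regions of all 4. Over all regions the corresponding medians were 9.71, 15.0, 22.2 and 60.6.

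**Figure D3:**
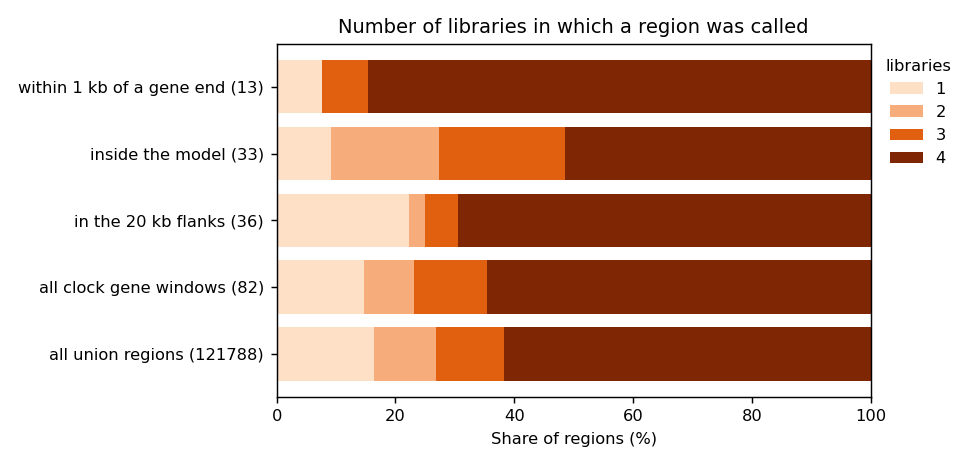
Share of open regions (%) called in 1, 2, 3 or 4 libraries, by position in the clock gene windows, for all clock gene windows and for all union regions; the number of regions is in brackets. Within the clock gene windows, gene ends have the largest share of regions called in all 4 libraries and the inside of models the smallest.

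Regions that separated the groups were few. Both BRG1 libraries and neither control called 2 of 82 (2.44%), against 0.741% of all regions. Both controls and neither BRG1 library called 2 of 82 (2.44%), against 4.41% of all regions. None lay at an end of a clock gene. The region of NR1D1 called in BRG1 alone ran from 22271973 to 22272362 and lay inside both NR1D1 and THRA. Its percentiles were 8.05 in BRG1 1 and 4.02 in BRG1 4, and the summits of these peaks lay 272 bp apart. The BRG1-only region of the DBP window ran from 53972619 to 53973005 inside FAM83E, 13950 bp from DBP. It ranked at 2.85 and 21.6, with summits 4 bp apart. With only peaks of −log10 q of at least 5 there was no such region.

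Of the regions called in controls alone, that at NR1D1 ran from 22270480 to 22270761 across the lower-coordinate end of THRA, at percentiles of 20.8 in control 1 and 24.5 in control 4. That at CRY1 ran from 13379979 to 13380440 inside TMEM263, near its lower-coordinate end, at 37.3 and 32.2. All 4 of these regions rested on 13 to 25 tags at the summit, so a library without the peak had it uncalled at this depth, which does not show closed chromatin. With 1 library left out, which lowers the number that must share a call, there were 2 to 4 BRG1-only and 5 to 8 control-only regions: 3 and 8 without control 1, 2 and 5 without control 4, 3 and 7 without BRG1 1, and 4 and 6 without BRG1 4.

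The windows held 70 peaks (control 1), 73 (control 4), 65 (BRG1 1) and 63 (BRG1 4). The control mean was 71.5 ± 2.12 and the BRG1 mean 64.0 ± 1.41 (SD, n = 2 per group). The two-sided exact permutation test gave p = 0.33, the smallest that 2 against 2 libraries allow. The groups did not overlap. The ratio of 0.895 was close to that of the whole lists, 0.877, and per 10000 peaks of its own list a library had 6.51, 6.89, 6.75 and 6.93 peaks in these windows, values that overlapped between the groups. The length under peaks was 43.3, 41.4, 38.3 and 44.9 kb, with a control mean of 42.3 ± 1.34 kb and a BRG1 mean of 41.6 ± 4.68 kb (SD, n = 2 per group; p = 1.0 by the same exact test). BRG1 1 had the least and BRG1 4 the most, so the BRG1 libraries lay on both sides of the controls.

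Gene by gene, peak numbers overlapped between the groups at 8 of the 9 loci. CRY1 was the exception, with 11 peaks in control 1, 12 in control 4, and 9 in each BRG1 library. Both BRG1 libraries lay below both controls at 19.0% of all genes, so 1 of 9 was no more than the background, and above both at 1.29% of all genes and at no clock gene. CLOCK ranged most, with 6, 10, 6 and 5, where control 4 stood alone. NR1D1 had 9 peaks and DBP 7 in every library, and PER3 had 2.

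**Figure D4:**
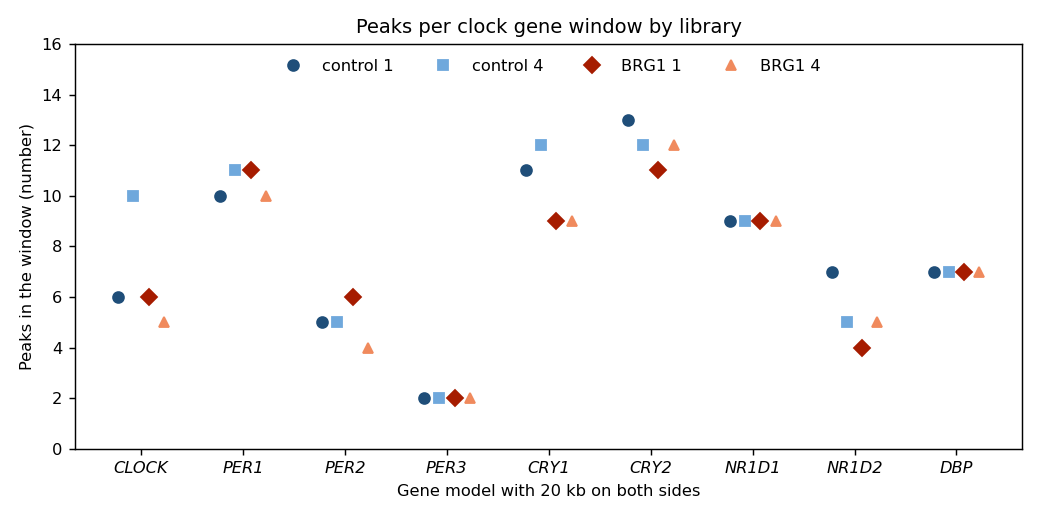
Number of peaks in the window of each clock gene (model with 20 kb on both sides), by library. CRY1 is the single gene where both BRG1 libraries (9 each) lie below both controls (11 and 12).

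Other genes of the clock were taken from a list of 26, fixed with earlier results of these data known. Of the list, 23 were found in the gene table. Of these, 21 (91.3%) had a peak within 1 kb of an end in every library, against 68.2% of all protein-coding genes, and 2 had one in no library. The 2 without were CIART, which encodes a repressor of CLOCK and BMAL1, and FBXL21, which encodes an F-box protein that acts on cryptochromes. ARNTL, which encodes BMAL1, ranked at 99.1, 99.3, 98.7 and 97.5 in control 1, control 4, BRG1 1 and BRG1 4. Among the other PAR bZIP genes, TEF had a mean percentile of 99.6 and HLF of 75.9. The receptor genes RORA (62.9) and RORB (64.5), whose products activate BMAL1 at the elements the REV-ERBs bind, had lower means than any of the 9 members. So did NPAS2 (63.9), a paralog of CLOCK, as well as HLF and several more of the 21 genes. Over the 21 genes the median was 89.7, near the 89.0 of all genes called in all 4 libraries. ARNTL, TEF, HLF, RORA, RORB and NPAS2 were picked for mention after their values were seen.

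By a rule on the 4 percentiles of the strongest end peak, the gene outside the windows most like each member (the smallest Euclidean distance over the 4 libraries) was RUFY2 for CLOCK, WDR33 for PER1, RC3H2 for PER2, RAB8A for PER3, MTMR11 for CRY1, CCDC130 for CRY2, CFDP1 for NR1D1, UGGT1 for NR1D2 and MDH2 for DBP. The distances were 0.129 (PER2) to 1.22 points (CLOCK). With 4 libraries and 13334 genes such near matches are a description only.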

How the data were processed

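The authors deposited 1 narrowPeak list per library. FastQC, BWA, Bowtie, SAMtools, MACS2 and the build Sscrofa11.1 are named, per the submitters' processing notes; versions, roles, duplicate handling and the Tn5 shift were not stated there, and each can change the number and width of peaks. The deposited fold is a ratio of summit pileup to background, and each peak's −log10 p-value and its −log10 q-value were deposited as the authors' caller gave them within a library. The deposited score follows the −log10 q-value and was not used. Fold and p were used to describe and rank peaks within their list. Pileup and background were solved from the pair for all 268 peaks examined (relative tolerance 0.001), on the assumption of MACS2's formulas.

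Peaks were merged into regions at 1 bp of overlap. Gene models came from a RefSeq table of Sscrofa11.1 without strand or exons, so the planned gene start became either gene end. Promoter motifs were not examined, since no sequence was used here. Group means were compared by exact permutation. No pair of lists shared over 0.202% of intervals. The members and lists were chosen with earlier results of these data known. The naming rule took all members, other clock genes not called in every library, genes at group-specific regions or at member ends, and the most similar gene. VAMP3, HES6, RPL18, TMEM107, BORCS6, MTERF2 and LOC110260831 were named outside this rule. Alternatives were a stricter q, lists of equal length, other windows and overlaps, nearest models, the replicate block and leaving out each library. Scripts ran in Python 3.11.15 with pandas 2.3.3, NumPy 2.4.6, SciPy 1.17.1 and Matplotlib 3.10.9, and interval code was tested on simulated data. The value of 1 other clock gene is not reported here.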

Additional observations from a re-analysis of the deposited data

How the results depend on the processing

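The ratio of peak numbers (BRG1 over control) stayed below 1 under every alternative run, from 0.839 (5 kb on both sides) to 0.955 (lists of equal length), and that of CRY1 lay between 0.750 and 0.857. The whole lists had a ratio of 0.877, and per 10000 peaks of a library's own list the groups overlapped. The ratio of covered length, 0.982, turned to 1.01 with lists of equal length and 1.02 with 50 kb on both sides, and leaving out each library gave 0.904 to 1.06, above 1 without control 1 and without BRG1 1. Regions of all 4 libraries numbered 32 with 5 kb on both sides, 102 with 50 kb and 34 where a clock gene was the nearest model, since fewer or more regions were counted. BRG1-only regions numbered 0 at a −log10 q of at least 5, and 1 with lists of equal length, with 5 kb on both sides or with the nearest model. Leaving out each library gave 2 to 4 BRG1-only and 5 to 8 control-only regions, 53 to 58 regions of all libraries, 9 clock genes and 21 other clock genes called. In all, 62 values kept their direction or size, 12 moved and 4 turned. The 62 include 20 values that were not planned. They also include those of the overlap of 50% of the shorter interval, whose outcome was fixed in advance. Replicate number as a block gave ratios of 0.896 for peak number and 0.985 for covered length (p = 0.5 and 1.0 by an exact sign-flip test that cannot go below 0.5) and changed no direction. The labels do not say what the numbers share, and over all regions the deviations of libraries with the same number had a correlation of −0.01. The planned overlap of 50% of the shorter interval cannot differ from 1 bp, as each peak lies whole inside its region; a rule that peaks cover 50% of the region, added after seeing the data, gave 47 regions of all 4 libraries. Absolute depth is unknown.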
